A study of Mus musculus with 18 samples.

Results

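Microglia keep their identity through a small set of DNA-binding proteins, and 8 genes of that set are described here, chosen by symbol from the 30905 genes of the deposited matrices: Spi1, Runx1, Irf8, Cebpa, Sall1, Maf, Mef2a and Mef2c. The counts came from single-nucleus RNA-seq of 2 brain regions of 9 Kun Ming mice, hippocampus (Hip) and, from the same animals, prefrontal cortex (PFC), with 1 droplet library per region and mouse. The 3 GF mice were germ-free and had no microbiota, the 3 SPF mice were kept specific pathogen free with a microbiota, and the 3 CGF mice were born germ-free and then colonized, being co-housed with SPF mice in an isolator from young age until harvest. Tissue of all mice was taken at 8 weeks, and SPF mice were raised outside the isolators that held the GF and CGF mice, so housing and microbiota cannot be told apart in comparisons with SPF. In comparisons of GF with CGF, colonization and the company of an SPF mouse cannot be told apart. No nucleus was sorted, no gene was altered in any group, and the labels do not give the sex of the mice.

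Spi1 encodes PU.1, an ETS-family protein that opens the enhancers of the myeloid lineage, and Runx1 encodes a Runt-family partner that acts with it early in that lineage. Irf8 and Cebpa encode further myeloid factors, which cooperate with PU.1 at composite DNA elements. Sall1 is a zinc-finger gene known as a mark of microglia against other macrophages, and MEF2A, MEF2C and the large MAF protein c-MAF are factors whose binding motifs occur beside PU.1 sites in microglial enhancers. MEF2 proteins are also central to neurons, where they link synaptic activity to transcription, and c-MAF is used by a part of the inhibitory interneurons.

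The sequences just upstream of 3 members are shown first, since they carry the letters that PU.1 and its partners are known to bind or lack them. All are given 5′ to 3′ on the strand of the gene as the 250 bases before the annotated RefSeq start (GRCm38.p6), in lower case with each searched match in capitals. Mef2a lies on the minus strand at chr7:67372859-67373108, Sall1 on the minus strand at chr8:89044163-89044412 and Irf8 on the plus strand at chr8:120736108-120736357.
Mef2a: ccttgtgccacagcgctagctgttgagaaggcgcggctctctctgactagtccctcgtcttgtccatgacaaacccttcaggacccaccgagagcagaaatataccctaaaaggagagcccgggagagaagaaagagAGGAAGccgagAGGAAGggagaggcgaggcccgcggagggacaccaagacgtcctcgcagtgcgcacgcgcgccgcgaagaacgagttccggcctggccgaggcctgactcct
Sall1: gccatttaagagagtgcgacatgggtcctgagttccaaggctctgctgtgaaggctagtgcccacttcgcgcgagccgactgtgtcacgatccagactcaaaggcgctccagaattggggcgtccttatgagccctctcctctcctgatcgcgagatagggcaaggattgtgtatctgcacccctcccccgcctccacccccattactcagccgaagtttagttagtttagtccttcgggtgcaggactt
Irf8: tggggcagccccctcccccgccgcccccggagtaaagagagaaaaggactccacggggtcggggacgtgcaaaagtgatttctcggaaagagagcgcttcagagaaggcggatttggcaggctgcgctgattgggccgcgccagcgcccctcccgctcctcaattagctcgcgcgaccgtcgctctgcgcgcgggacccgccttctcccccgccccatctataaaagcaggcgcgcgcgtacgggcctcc
The capitals in the Mef2a window mark AGGAAG, a purine-rich core shared by ETS proteins, with its 2 copies starting 113 and 102 bases before the start. This short motif occurred in 29.5% of all 32851 such windows, on either strand. The printed windows of Sall1 and Irf8 held none of the 7 motifs searched. Of 3 annotated starts of Sall1, the one with the window chr8:89042863-89043112 has AGGAAG 181 bases upstream, and the remaining window (chr8:89043513-89043762) held no match. AGGAAG also occurred in 1 window each of Runx1 and Mef2c, and the second Irf8 window held no match. Beside AGGAAG these were the longer PU.1 form GAGGAAGT, which contains it and was found in 2.44% of all windows, the RUNX motif TGTGGT (4614 windows), the C/EBP motif TTNNGCAA (9.56%), the MAF motif TGCTGAC (3.81%), and the MEF2 motif (3.20%) and the ETS-IRF composite motif (2.30%), searched on both strands. RefSeq windows were matched for 6 members, with 12 start sites, and Spi1 and Maf had no entry. A match is a description of letters, not a site in use.

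Microglia were gated by 18 marker genes, none of them a member, and 3967 of 138000 nuclei passed, or 2.87% of the nuclei and 0.729% of their UMIs (unique molecular identifiers, each counting 1 captured RNA molecule). Of these, 2009 were from Hip and 1958 from PFC, with 102 to 352 per library, and 98.2% also lay in clusters named as microglia. The clusters were named by the same 18 markers, so this share is no independent check of the gate. Those clusters separated the groups, although members were left out of the clustering. In Hip, cluster 22 held 93.7% of the GF microglia, and cluster 14 held 98.1% of the SPF and 98.5% of the CGF microglia. In the PFC, cluster 18 held 96.7% of the GF microglia, and cluster 14 held 97.7% of the SPF and 97.2% of the CGF microglia. All comparisons of GF microglia with SPF or CGF microglia therefore set nuclei of different clusters against each other. Microglial markers made up 95.2 to 156 of every 10000 UMIs in the gated nuclei, and 0.766 to 1.31 in excitatory neurons. The marker level itself moved with the groups, at 134 to 156 in GF libraries and 95.2 to 121 in SPF and CGF libraries. Markers of border macrophages, the other macrophages of the brain, were at 0.824 to 1.32 per 10000 in the microglia of Hip SPF and Hip CGF, 1.79 to 3.03 in both GF sets and PFC SPF, and 3.29 to 5.79 in PFC CGF. Library depth was 49067853 to 63217083 UMIs in Hip and 59126586 to 71463928 in PFC GF, against 20336250 to 26949210 in PFC SPF and PFC CGF, and the median microglial nucleus held 1490 to 2285 UMIs in the deeper libraries and 618 to 768 in the shallower ones. In the PFC, the absence of a microbiota and the deeper sequencing therefore cannot be told apart. No more than 1 microglial barcode was shared between any 2 libraries.

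Spi1 and Runx1 were the members held most tightly by microglia. Microglia gave 66.7% of all Spi1 UMIs and 68.6% of all Runx1 UMIs, and border macrophages, with 155 nuclei, gave another 2.97% and 3.56%. Spi1 stood at 107, 186 and 202 CPM (counts scaled to a total of 1000000 UMIs in that type; lowest, median and highest of 9 libraries) in Hip microglia, and at 90.3, 132 and 249 CPM in PFC microglia. Its median was below 1 CPM in each other type that had enough nuclei for a median, which leaves out border macrophages (215 CPM in Hip and 129 CPM in PFC when summed over libraries). Runx1 ranged over 544, 623 and 720 CPM (719.5 at the highest) in Hip microglia and over 348, 442 and 792 CPM in PFC microglia. Border macrophages summed to 747 CPM in Hip and 754 CPM in PFC. Among the types with a median the next was 9.71 CPM, in Hip mural cells. No fold is given for Spi1 and Runx1, since many libraries of the other types were at 0.

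**Figure D1:**
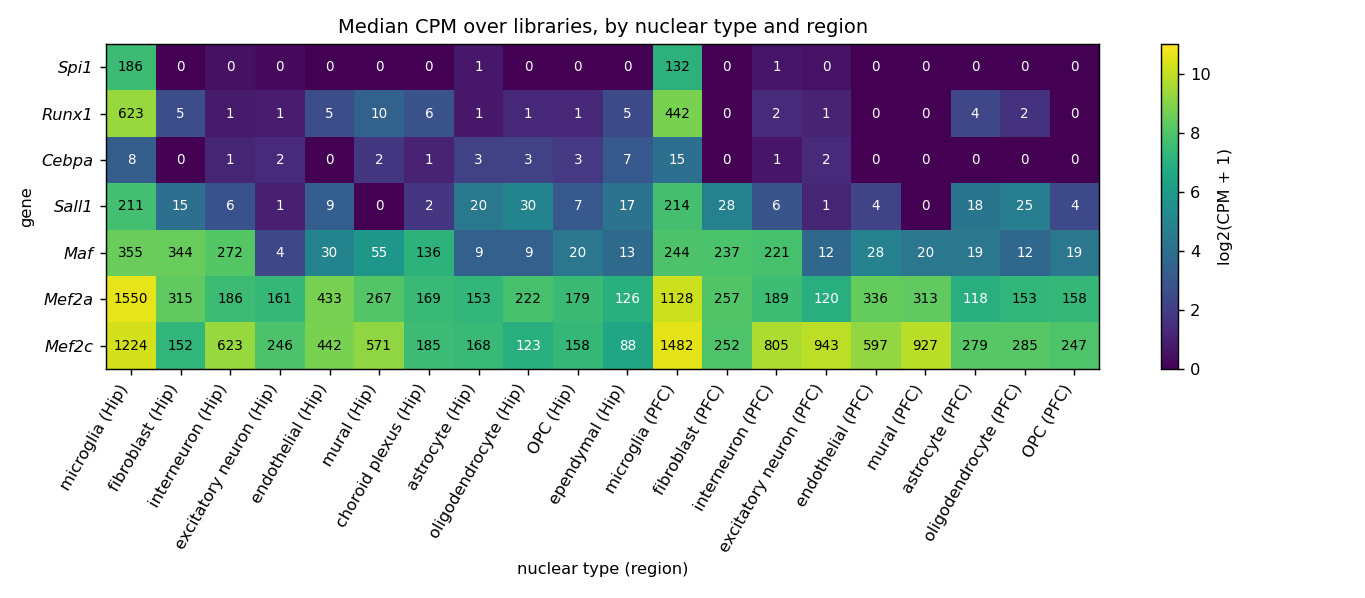
Median CPM of 7 members (rows, without Irf8) in each nuclear type and region (columns) over the libraries with at least 20 nuclei of that type, coloured on a log2(CPM + 1) scale. Spi1 and Runx1 stand out in the 2 microglial columns, Maf is also seen in fibroblasts and interneurons, and Mef2a and Mef2c are seen in every column.

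These differences were tested by the exact paired permutation test over mice, two-sided, on log2(CPM + 1), where the pseudocount of 1 CPM sets the size of a difference from a type at 0, for 7 members against the 9 types in Hip and 8 in PFC that had at least 20 nuclei in 6 or more libraries. With 9 mice the smallest p the test can give is 0.00391, and all 9 mice had more Spi1 and more Runx1 in microglia than in astrocytes, oligodendrocytes, OPC (oligodendrocyte precursor cells), both neuron classes and endothelial cells in both regions. A gene was counted only if it was higher in microglia than in every tested type at an unadjusted p under 0.05. The background was the genes with at least 5 CPM in microglia or a tested type. In Hip 5 members passed (Spi1, Runx1, Sall1, Mef2a and Mef2c), where 6.30% of 15878 such genes passed. In the PFC 6 members passed, the same 5 and Cebpa, where 5.45% of 15353 such genes did. The pass of Cebpa rested on few UMIs, 1 to 3 in the microglia of each SPF and CGF library of the PFC. Pseudocounts of 0.1 and 10 CPM gave the same members in both regions. The members were chosen as known microglial factors, so their count above the background describes the choice as well as the cells.

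Sall1 gave 30.6% of its UMIs from microglia and most of the rest from oligodendrocytes (12.0%), astrocytes (11.3%), interneurons (11.3%) and excitatory neurons (17.9%). Its microglial level over all 9 mice was 167, 211 and 264 CPM in Hip and 165, 214 and 267 CPM in PFC, ranges that overlap, although the SPF libraries alone did not (185, 196 and 211 CPM in Hip, 237, 244 and 267 CPM in PFC). The next types were oligodendrocytes, with medians of 30.2 CPM in Hip, and fibroblasts, with 27.6 CPM in PFC. Microglia exceeded oligodendrocytes by 2.86 log2 units in Hip and by 2.95 in PFC, in 9 of 9 mice each time (exact paired permutation p = 0.00391).

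Mef2a and Mef2c were present in every type and, among the types tested, highest in microglia. Microglia gave 6.34% of the Mef2a UMIs and 1.91% of the Mef2c UMIs, and excitatory neurons gave 64.7% and 75.3%. Mef2a stood at 1172, 1549.55 and 2083 CPM in Hip microglia and at 756, 1128 and 1505 CPM in PFC microglia. Endothelial cells came next, with medians of 433 CPM in Hip and 336 CPM in PFC, below every microglial library. Mef2c reached 931, 1224 and 1847 CPM in Hip microglia and 1106, 1482 and 2013 CPM in PFC microglia. The neighbours of microglia in the order of Mef2c levels were all in the PFC, where excitatory neurons had a median of 943 CPM, mural cells 927 CPM and interneurons 805 CPM. Microglia exceeded these by 0.67, 0.71 and 0.87 log2 units, with more Mef2c in microglia in 9 of 9 mice in each case (exact paired permutation p = 0.00391). Hip excitatory neurons had a much lower median, 246 CPM.

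Maf was shared by microglia, interneurons and fibroblasts. Interneurons gave 60.1% of its UMIs and microglia 6.45%. Its levels were 268, 355 and 459 CPM in Hip microglia and 160.0, 244 and 350 (349.7) CPM in PFC microglia, beside medians of 344 and 237 CPM in fibroblasts and 272 and 221 CPM in interneurons of Hip and PFC. Microglia and fibroblasts did not differ beyond the spread between mice, with a difference of 0.29 ± 0.34 log2 units (SD, n = 8; exact permutation p = 0.0547) in Hip and 0.07 ± 0.48 (SD, n = 9; exact permutation p = 0.668) in PFC. Against interneurons the difference was 0.42 ± 0.34 (SD, n = 9; exact permutation p = 0.0117) in Hip and 0.17 ± 0.40 (SD, n = 9; exact permutation p = 0.25) in PFC. Choroid plexus followed with 136 CPM in Hip, and excitatory neurons had 4.15 CPM there and 11.8 CPM in the PFC.

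Cebpa was scarce, with 1 to 11 UMIs in the microglia of a library. Its microglial level was 2.82, 8.41 and 26.9 CPM in Hip and 8.89, 15.3 and 34.9 CPM in PFC, against medians of 0 to 7.28 CPM in other types. In Hip it was not separated from ependymal cells, where microglia were 0.99 ± 1.85 log2 units higher (SD, n = 6), in 4 of 6 mice (exact permutation p = 0.25). The lowest values in both regions rested on 1 UMI, under the 3 UMIs that a count of 0 would allow, so single libraries cannot be ranked for Cebpa.

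Irf8 was listed at 0 in all 139924 barcodes, and this value cannot be read as absence. The gene lies at chr8:120736358-120756694 on the plus strand (GRCm38), wholly inside the annotated gene Gm20388 on the same strand, at chr8:119910841-124345722, which held 663726 UMIs. All 59 genes annotated inside Gm20388 on its strand were at 0, and 0 of the 49 genes on the other strand were. Across the genome, 413 of 414 protein-coding genes lying inside a longer gene of the same strand were at 0 (99.8%), compared with 1696 of 21466 other protein-coding genes (7.90%). Gm20388 itself was found in every type, with medians of 592 to 1096 CPM in Hip and 271 to 714 CPM in PFC, and microglia, at 877 and 295 CPM, lay within these ranges. No value of Gm20388 was taken for Irf8, and the remaining results concern 7 members.

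The other members lie at chr2:91082390-91115756 on the plus strand (Spi1), chr16:92601466-92826149 on the minus strand (Runx1), chr7:35119293-35121928 on the plus strand (Cebpa), chr8:89027235-89044162 on the minus strand (Sall1), chr8:115682942-115707794 on the minus strand (Maf), chr7:67231163-67372858 on the minus strand (Mef2a) and chr13:83504034-83667080 on the plus strand (Mef2c), all in GRCm38. Spi1, Sall1 and Mef2c overlap no other gene. Opposite-strand neighbours overlap the rest, of which Lysmd4, with 49973 UMIs in the series beside 146187 of Mef2a, was the most abundant, and Gm15655, with 770 UMIs, overlaps Maf.

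Within single nuclei the members were detected in part only. After each nucleus was thinned to 500 UMIs, a Hip GF microglial nucleus held Mef2a in 49.8% of cases, Mef2c in 43.2%, Runx1 in 25.7%, Maf in 11.4%, Sall1 in 9.22% and Spi1 in 9.06%. Without thinning, at a median of 1600 UMIs, these shares were 84.2%, 80.3%, 58.8%, 37.8%, 25.2% and 26.4%. In Hip GF excitatory neurons, which should lack Spi1 and Runx1 and had far more UMIs per nucleus, 0.189% and 0.390% of nuclei held a UMI of them before thinning and 0 and 0.0521% after it. The thinned microglial nucleus held 1.28 to 1.80 of the 7 members on average over the 6 sets of libraries, lowest in PFC SPF and highest in Hip CGF, and 8.78% to 24.6% of the nuclei held none. Excitatory markers were at 6.61 to 10.8 per 10000 UMIs in microglial nuclei. If these UMIs were free RNA of excitatory neurons, that source would add 76.1 to 394 CPM of Mef2c and 28.5 to 93.4 CPM of Mef2a to a microglial library. It would add at most 5.59 CPM of Maf, 1.16 CPM of Sall1, 0.96 CPM of Cebpa, 0.77 CPM of Runx1 and 0.28 CPM of Spi1. Free RNA of interneurons, which gave 60.1% of the Maf UMIs, is not part of this estimate. The subtractions of neuronal free RNA below use the same profile of excitatory neurons alone.

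Border macrophages were few, so their UMIs were summed over the 9 libraries of a region and are given with exact 95% Poisson intervals that cover counting error only. Sall1 was near absent in them, with 2 UMIs in Hip (11.9 CPM, interval 1.45 to 43.1) and 0 in PFC (interval up to 39.7 CPM), while microglia summed to 207 CPM (193 to 222) and 199.7 CPM (182 to 219). Maf went the other way, at 1045 CPM (896 to 1212) in Hip border macrophages against 365 CPM (346 to 385) in microglia, and 797 CPM (626 to 1001) against 289.6 CPM (268 to 312) in the PFC. Mef2a was at 776 CPM (649 to 922) in Hip border macrophages and 743 CPM (578 to 941) in PFC border macrophages, below the microglial sums of 1621 and 1301 CPM. Spi1, Runx1 and Mef2c were of like size in both kinds of macrophage, for example Runx1 at 747 CPM (621 to 889) against 618 CPM in Hip. With sums over libraries there is no spread between mice and no test. Of the 155 border macrophages, 143 lay in the microglial clusters, so microglia taken from clusters include them. Microglial markers were at 23.3 to 76.9 per 10000 UMIs in the border macrophages of a library, against a cut of 25 for microglia. How far the 2 sets mix was not tested.

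**Figure D2:**
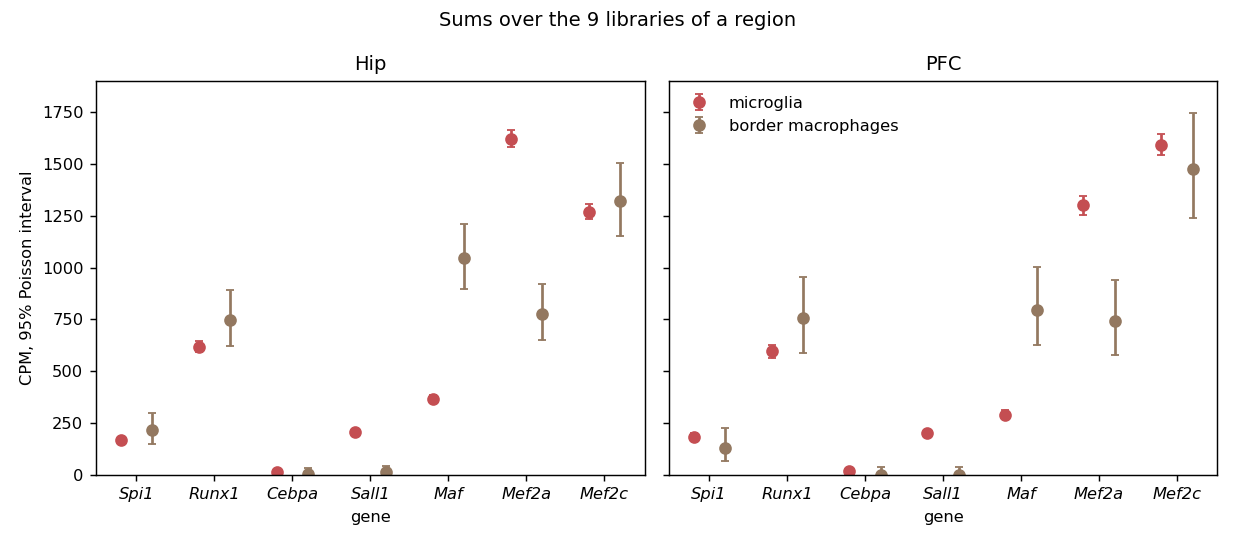
CPM of 7 members, summed over the 9 libraries of each region, in microglia and in border macrophages, with exact 95% Poisson intervals as whiskers. In both regions Maf lies above and Mef2a and Sall1 lie below in border macrophages, and the intervals of Spi1 and Mef2c overlap between the 2 types.

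Over the 20 types and regions, the genes most like each member in level were named by Pearson correlation of log2(CPM + 1) of the mean over libraries, among 16731 genes with at least 5 CPM in some type. Spi1 was closest to Adgre1 (r = 0.98), which encodes the macrophage antigen F4/80, then Cd33 (0.98) and Nckap1l (0.97), and Runx1 to Lcp2 (0.96), Ntpcr (0.96) and Arhgap45 (0.95), the last a marker used in the gate. Sall1 came closest to Slc29a3 (0.89), Cebpa to Cd180 (0.86) and Mef2a to Nrip1 (0.96). Mef2c was nearest to Cpsf4 (0.93), and Maf to its own antisense neighbour Gm15655 (0.93). These points share libraries and depth, and the values are descriptions.

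The main question of the study was what a missing microbiota changes, and in Hip microglia none of the 6 members tested differed between GF and SPF mice, where 25.1% of 8012 tested genes did. Here and in what follows the test was edgeR's quasi-likelihood test on summed counts over all genes with Benjamini-Hochberg adjustment, called at an adjusted p under 0.05, and differences are log2 fold changes ± SE with 3 mice per group. Each SE was derived from the test's F statistic, as the size of the log2 fold change over the square root of F. In bulk sums of this kind, less RNA per nucleus and fewer expressing nuclei cannot be told apart. Hip Spi1 was at 188, 202 and 186 CPM in GF, 177, 196 and 107 CPM in SPF and 199, 163 and 113 CPM in CGF. The GF libraries lay close together and overlapped both other groups. The difference between GF and SPF was 0.29 ± 0.21 (edgeR adjusted p = 0.335). Hip Runx1 was at 603, 676 and 719.5 CPM in GF and 623, 639 and 544 CPM in SPF, which overlap. For Runx1, Mef2c, Mef2a, Sall1 and Maf the differences were 0.18 ± 0.14, 0.18 ± 0.16, 0.02 ± 0.14, -0.06 ± 0.17 and -0.13 ± 0.16, and 0 members had an unadjusted edgeR p under 0.05. With neuronal free RNA subtracted, whose estimated share was lower in GF than in SPF libraries, the differences were -0.16, -0.09, -0.28, -0.39 and -0.46, and -0.04 for Spi1, and none was called. The median over the 6 members was 0.10, beside -0.01 over all tested genes.

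Maf and Mef2a were lower in GF than in CGF microglia of Hip. Mef2a was at 1528, 1315 and 1549.55 CPM in GF, 2028, 2083 and 1854 CPM in CGF and 1507, 1737 and 1172 CPM in SPF. Every CGF library was above every GF and every SPF library. The difference between GF and CGF was -0.43 ± 0.14 (edgeR adjusted p = 0.0281). Maf was at 324, 268 and 348 CPM in GF, 415, 439 and 459 CPM in CGF and 355, 407 and 286 CPM in SPF. Here too the CGF libraries were above all others, and the difference between GF and CGF was -0.48 ± 0.16 (edgeR adjusted p = 0.0262). Thus 2 of 6 members were called lower, where 26.9% of genes were called and 11.6% were lower. Sall1 was at 264, 242 and 228 CPM in CGF and 167, 218 and 169.8 CPM in GF, a difference of -0.39 ± 0.17 that missed the threshold (edgeR adjusted p = 0.0866). Mef2c (-0.30 ± 0.16), Spi1 (0.30 ± 0.22) and Runx1 (0.19 ± 0.14) were not called either. Leaving out mouse GF5 or GF6 ended both calls (without GF6 Sall1 was called instead, at -0.56), leaving out GF7, CGF17 or CGF18 ended the call of Mef2a and leaving out CGF19 ended that of Maf. DESeq2 ended the call of Maf (-0.49) and microglia from clusters that of Mef2a (-0.45). In the fits without 1 mouse that lost a call the differences ran from -0.39 to -0.48 for Mef2a and from -0.40 to -0.49 for Maf. The free RNA of Mef2a to be reckoned with in Hip was 47.4 to 52.1 CPM in GF and 68.9 to 93.4 CPM in CGF libraries, and with neuronal free RNA subtracted the difference of Mef2a was -0.70 and that of Maf -0.76, and Sall1 (-0.67) and Mef2c (-0.55) were called as well. The share of microglial UMIs that the excitatory markers would assign to free RNA was 30.9 to 33.5% in Hip GF, 42.5 to 53.3% in Hip CGF and 48.3 to 54.4% in Hip SPF libraries. Astrocyte markers in Hip microglia also moved with the groups, at 22.7 to 24.2 per 10000 UMIs in GF, 30.8 to 43.9 in CGF and 28.9 to 38.0 in SPF, and their part in the differences was not tested.

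Between CGF and SPF microglia of Hip no member was called, and few genes were at all (0.137% of 8012). Mef2c was at 1503, 1847 and 1224 CPM in CGF and 1269.5, 1141 and 931 CPM in SPF, with 1 CGF library below the highest SPF library. The differences were 0.47 ± 0.16 for Mef2c, 0.46 ± 0.14 for Mef2a and 0.35 ± 0.15 for Maf, with unadjusted edgeR p of 0.00554, 0.00410 and 0.0315 and adjusted values of 0.473, 0.419 and 0.645. The comparisons with CGF share its 3 libraries. Spi1 and Runx1 differed by -0.01 ± 0.21 and -0.01 ± 0.14.

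**Figure D3:**
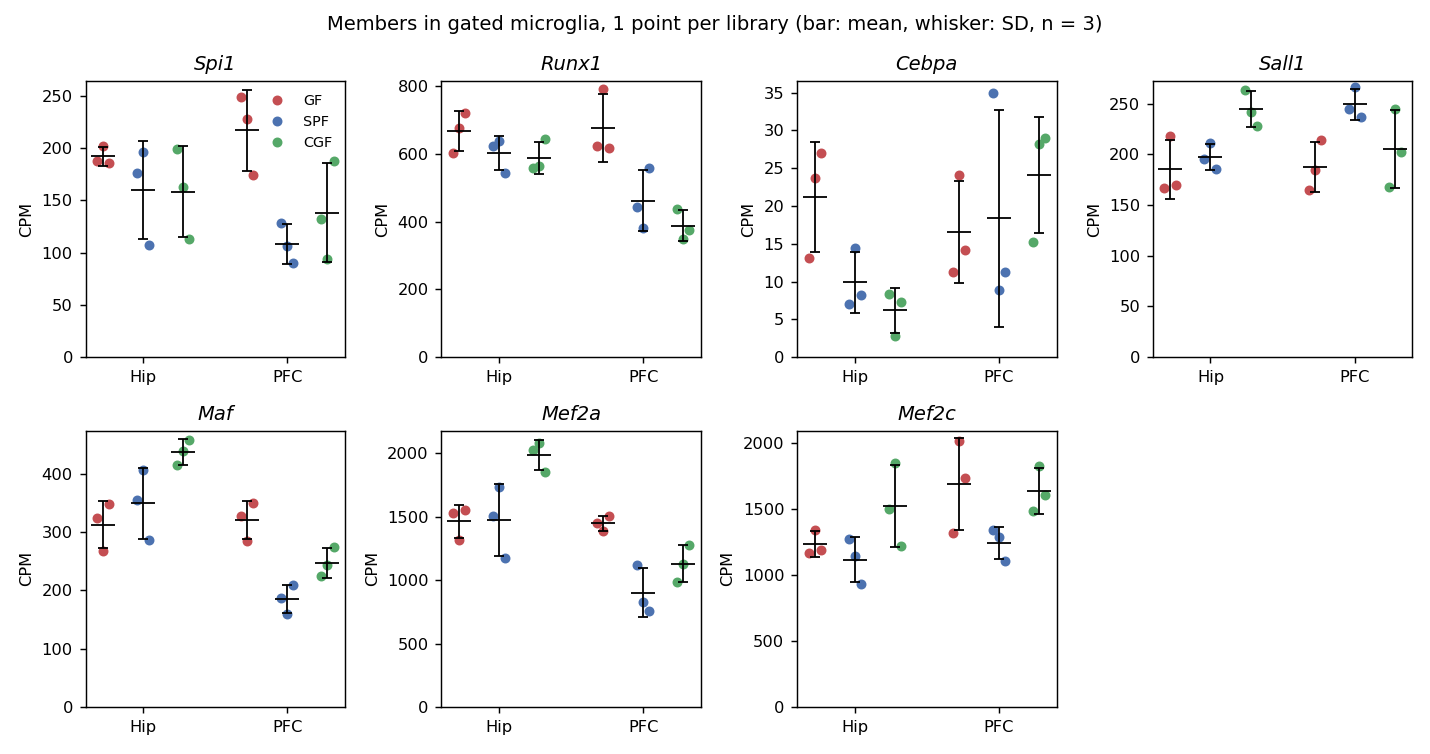
CPM of 7 members in the gated microglia of each library, 1 point per library, by region and group (GF, SPF, CGF), with the mean as a bar and the SD as a whisker (n = 3). In Hip the 3 CGF points of Mef2a lie at 1854 to 2083, above the GF and SPF points, and in the PFC the 3 GF points of Spi1, Maf and Mef2a lie above the SPF points.

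In PFC microglia, Spi1, Maf and Mef2a were higher in GF than in SPF mice. Spi1 was at 249, 228 and 174 CPM in GF, 128, 107 and 90.3 CPM in SPF and 132, 94.0 and 188 CPM in CGF. Every GF library was above every SPF library, and 1 CGF library lay within the GF range. The difference between GF and SPF was 0.94 ± 0.26 (edgeR adjusted p = 0.00486), a 1.91-fold higher level, and rested on 11, 12 and 16 UMIs in the SPF libraries. Maf was at 328, 285 and 349.7 CPM in GF, 186, 160.0 and 209 CPM in SPF and 224, 244 and 275 CPM in CGF. The groups did not overlap, with CGF between the other two. Maf differed between GF and SPF by 0.67 ± 0.21 (edgeR adjusted p = 0.0122). Mef2a was at 1449, 1386 and 1505 CPM in GF, 1118, 827 and 756 CPM in SPF and 988, 1128 and 1274 CPM in CGF. All GF libraries were above all SPF and CGF libraries, and the difference to SPF was 0.61 ± 0.18 (edgeR adjusted p = 0.00814).

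These were 3 of 6 tested members, where 37.5% of 5048 genes were called and 17.9% of the tested genes were called higher. The median over the 6 members was 0.51, beside 0.01 over all tested genes. Runx1 was at 622, 792 and 616 CPM in GF, 442, 382 and 559 CPM in SPF and 438, 348 and 376 CPM in CGF. The GF libraries were the 3 highest of the 9, and the difference to SPF was 0.42 ± 0.19 (edgeR adjusted p = 0.0797). Sall1 had the opposite sign, at 165, 184 and 214 CPM in GF, 244, 267 and 237 CPM in SPF and 168, 244 and 203 CPM in CGF. No GF library reached the lowest SPF library, and the difference of -0.51 ± 0.21 missed the threshold (edgeR adjusted p = 0.0576). Mef2c, at 1319, 2013 and 1734 CPM in GF and 1339, 1289 and 1106 CPM in SPF, differed by 0.35 ± 0.19 (edgeR adjusted p = 0.144).

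Spi1 kept its call in each of the alternatives run, with differences from 0.75 to 1.12. Maf lost it without SPF31 (0.57), with the sums thinned to an equal mean of UMIs per nucleus (0.56) and with free RNA subtracted (0.50). Mef2a lost it without SPF32 (0.54) and with free RNA subtracted (0.45). The thinning left the numbers of nuclei, and so the microglial totals of the libraries, unequal. Sall1 gained a call with the stricter gate (-0.55), without the 10% of nuclei richest in UMIs (-0.55) and with free RNA subtracted (-0.69), Runx1 with microglia from clusters (0.56) and without SPF32 (0.67), and Mef2c without GF5 (0.54). Without TMM scaling the median of all genes moved to 0.16, the split of called genes went from 906 higher and 985 lower to 1184 higher and 782 lower, and Runx1 and Mef2c also passed, at 0.57 and 0.49, with only the part above 0.16 in excess of that shift. Without the filter on low counts the median moved to 0.38 and the split to 1558 higher and 845 lower, and the same 2 members passed, at 0.58 and 0.52.

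Only Runx1 was called between GF and CGF microglia of the PFC, 1 of 6 members where 34.4% of genes were called and 16.9% were higher in GF. Its difference was 0.66 ± 0.20 (edgeR adjusted p = 0.00887), with all GF libraries above all CGF libraries, and it was 0.53 and no longer called with free RNA subtracted. Spi1 differed by 0.59 ± 0.25 (edgeR adjusted p = 0.0651) and was called in 7 alternatives, at 0.66 to 0.82, among them those without CGF19 and without GF7. Maf differed by 0.29 ± 0.20 and Mef2a by 0.25 ± 0.18. Between CGF and SPF no member was called (0.0198% of genes). The differences there ran from -0.30 ± 0.25 for Sall1 to 0.43 ± 0.19 for Mef2c, the single member with an unadjusted edgeR p under 0.05 (0.0356, adjusted 0.725).

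**Figure D4:**
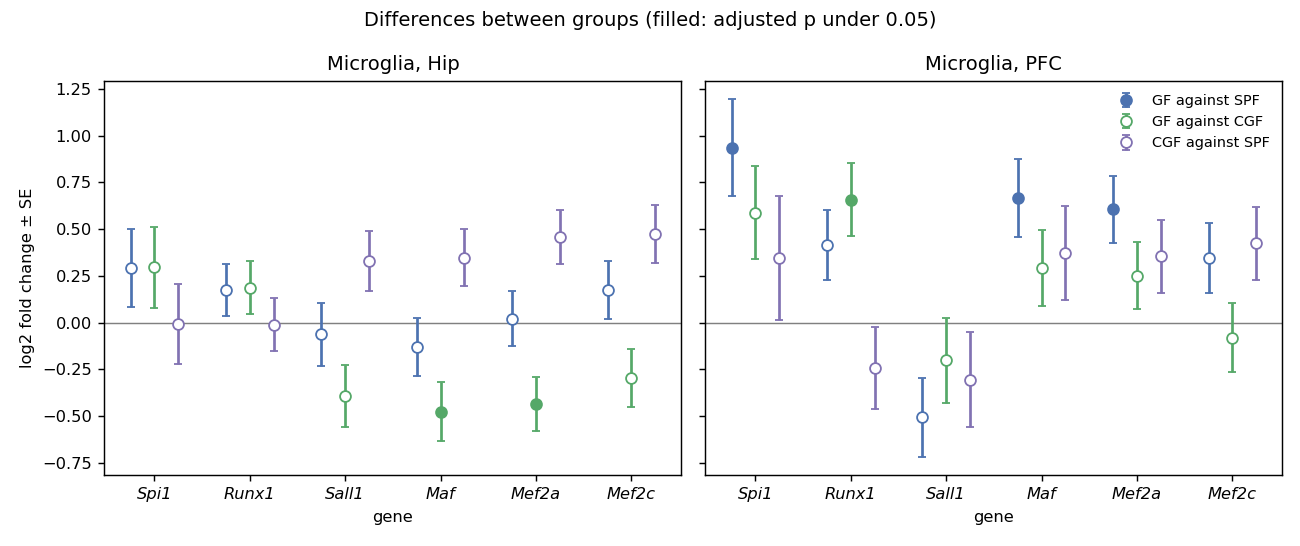
Log2 fold changes ± SE of 6 members in the microglia of Hip and PFC for GF against SPF, GF against CGF and CGF against SPF (edgeR, 3 mice per group), with filled points where the adjusted p was under 0.05. In Hip the filled points are those of Mef2a and Maf for GF against CGF, and in the PFC those of Spi1, Maf and Mef2a for GF against SPF and Runx1 for GF against CGF.

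Between regions, Maf and Mef2a were higher in Hip than in PFC microglia of SPF and of CGF mice. Mef2a differed by 0.62 ± 0.17 in SPF (edgeR adjusted p = 0.00868) and 0.74 ± 0.17 in CGF (edgeR adjusted p = 0.00151), and Maf by 0.76 ± 0.21 (edgeR adjusted p = 0.00744) and 0.76 ± 0.20 (edgeR adjusted p = 0.00601). Each was 2 of 7 members, where 20.9% of 9169 genes were called in SPF (10.3% higher in Hip) and 19.4% in CGF (10.2% higher in Hip). Both calls ended without mouse SPF31 in SPF (Mef2a 0.43, Maf 0.54) and without CGF17 in CGF (0.65 and 0.72), and with microglia taken from clusters instead of the gate. In GF mice, whose regions were sequenced to like depth, no member and 1.47% of genes were called, and Mef2a and Maf differed by 0.04 ± 0.16 and -0.01 ± 0.16. Mef2c in GF microglia was lower in Hip by an unadjusted edgeR p of 0.0184 (-0.42 ± 0.17, adjusted 0.321). The others with an unadjusted edgeR p under 0.05 that missed the threshold were Sall1 in SPF (-0.46 ± 0.20, edgeR adjusted p = 0.103), Runx1 in CGF (0.49 ± 0.19, edgeR adjusted p = 0.0680) and Cebpa in CGF (-1.84 ± 0.78, edgeR adjusted p = 0.0922). With microglia from clusters Mef2c in GF (-0.70), Sall1 in SPF (-0.67) and Cebpa in CGF (-2.06) were called, and Runx1 in CGF was called in 4 other alternatives (0.51 to 0.60), among them the one without SPF32. The regions of SPF and CGF mice differed in depth as well as tissue, and these cannot be told apart.

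The test of whether the GF against SPF difference itself differed between regions called no member (8.98% of genes). Maf came closest, with -0.78 ± 0.27 for Hip minus PFC (edgeR adjusted p = 0.0576), followed by Mef2a with -0.57 ± 0.23 (edgeR adjusted p = 0.117). Spi1, called in the PFC and not in Hip, gave -0.63 ± 0.35 (edgeR adjusted p = 0.287). For GF against CGF, Mef2a passed with -0.70 ± 0.23 (edgeR adjusted p = 0.0475), where 9.82% of genes passed and 5.29% in that direction, while Maf gave -0.77 ± 0.26 (edgeR adjusted p = 0.0503). With the mouse as a block, pairing its 2 regions, Maf passed as well (-0.75, edgeR adjusted p = 0.0442).

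The members were next followed in astrocytes, oligodendrocytes, OPC, excitatory neurons and interneurons, where those abundant enough could be tested for GF against SPF. In Hip 6 pairs of a member and a type were called, all lower in GF. These were 1 of 4 tested members in astrocytes, 1 of 4 in oligodendrocytes and 1 of 7 in excitatory neurons. Interneurons had 2 of 4 called and OPC 1 of 3. The counts of astrocytes, oligodendrocytes and excitatory neurons lay below the shares of all genes called there, and those of interneurons and OPC above. Mef2a fell in astrocytes by 0.40 (SE 0.12, edgeR adjusted p = 0.0165; 33.7% of genes called), oligodendrocytes by 0.44 (SE 0.13, edgeR adjusted p = 0.0127; 34.6%), excitatory neurons by 0.21 (SE 0.06, edgeR adjusted p = 0.0110; 45.2%) and interneurons by 0.26 (SE 0.07, edgeR adjusted p = 0.0129; 40.9%). Excitatory markers in Hip astrocytes moved the same way, at 4.04 to 4.68 per 10000 UMIs in GF and 4.84 to 6.36 in SPF, and their part in the Mef2a value of astrocytes was not tested. Maf fell in interneurons, its main neuronal site, from 328 ± 28.6 CPM in SPF to 228 ± 14.2 CPM in GF (SD, n = 3), by 0.66 on the log2 scale (edgeR adjusted p = 0.00110), and CGF stood between at 267 ± 41.2 CPM. Maf also fell in OPC, by 1.51 (SE 0.39, edgeR adjusted p = 0.0119; 16.9% of genes called), on 13 UMIs in GF and 62 in SPF.

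In the PFC 7 pairs were called, with directions that depended on the gene. These were 1 of 4 tested members in astrocytes and 1 of 4 in interneurons. Excitatory neurons had 1 higher and 2 lower of 7, and oligodendrocytes 1 higher and 1 lower of 3. Except in oligodendrocytes, these counts lay below the shares of all genes called in those types. Mef2a was higher in GF excitatory neurons, at 160.4 ± 5.92 CPM against 118 ± 6.06 CPM in SPF (SD, n = 3), a difference of 0.58 ± 0.10 (edgeR adjusted p = 0.000229; 62.9% of genes called), and in interneurons by 0.40 ± 0.12 (edgeR adjusted p = 0.0101; 52.5%). Mef2c was higher in GF astrocytes (0.68 ± 0.16, edgeR adjusted p = 0.00117; 45.5% of genes called) and oligodendrocytes (0.44 ± 0.17, edgeR adjusted p = 0.0435; 39.3%). Excitatory markers in PFC astrocytes were at 4.17 to 4.42 per 10000 UMIs in GF and 5.798 to 7.32 in SPF. Their part in the Mef2c values of astrocytes and oligodendrocytes was not tested. Sall1 was lower in GF oligodendrocytes (-1.14 ± 0.40, edgeR adjusted p = 0.0250) and excitatory neurons (-0.92 ± 0.29, edgeR adjusted p = 0.0166), and Cebpa was lower in GF excitatory neurons (-1.23 ± 0.27, edgeR adjusted p = 0.00168). In excitatory neurons both were close to or under 2 CPM, at 0.978 against 2.04 CPM for Sall1 and 0.733 against 1.88 CPM for Cebpa. In PFC OPC 0 of 2 tested members were called, where 33.4% of genes were, and neither had an unadjusted edgeR p under 0.05. Mef2c in excitatory neurons, which hold most of its UMIs, differed by 0.08 ± 0.10 in the PFC and -0.03 ± 0.27 in Hip.

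The same test of a difference between regions was run in these 5 types. For GF against SPF it called 5 pairs, Mef2a in excitatory neurons, interneurons and oligodendrocytes, Maf in interneurons and Cebpa in excitatory neurons, where 52.2% of genes passed in excitatory neurons, 40.9% in interneurons, 16.9% in oligodendrocytes, 23.3% in astrocytes and 14.0% in OPC. For GF against CGF it called 7 pairs, where the shares were 52.4%, 42.8%, 19.4%, 27.6% and 16.3%. With the mouse as a block 7 and 9 pairs were called, the added ones being Mef2c in astrocytes (-0.53 and -0.50), Mef2c in oligodendrocytes (-0.70 for GF against SPF) and Mef2a in oligodendrocytes (-0.57 for GF against CGF). In excitatory neurons Mef2a gave -0.86 ± 0.11 and -1.04 ± 0.11 for Hip minus PFC, the largest shift of Mef2a in any of the 6 types tested.

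**Figure D5:**
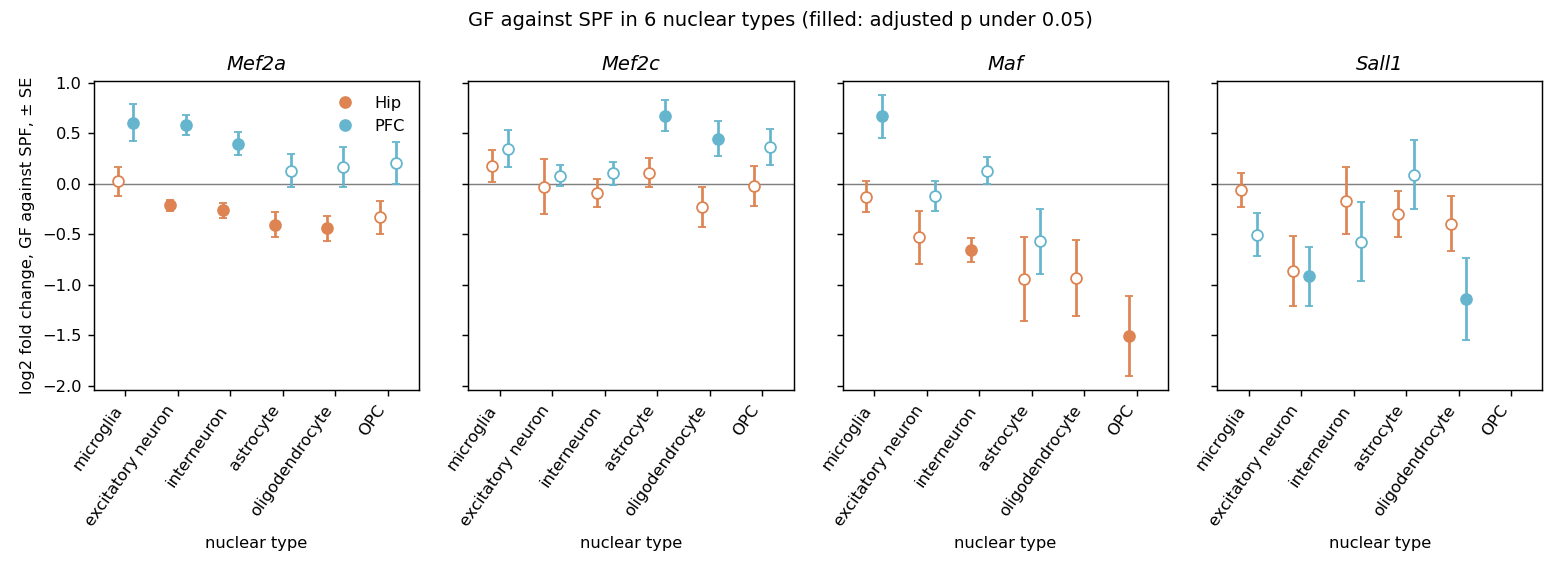
Log2 fold changes ± SE for GF against SPF of Mef2a, Mef2c, Maf and Sall1 in 6 nuclear types of Hip and PFC (edgeR, 3 mice per group), with filled points where the adjusted p was under 0.05 and no point where the gene was too low to be tested. The Hip points of Mef2a lie below its PFC points in each of the 6 types, which come from the same libraries.

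Genes that work beside the members were taken from lists and read in the same fits of microglia for GF against SPF. Of their relatives (other C/EBP, IRF, MAF, MEF2, RUNX, SALL and PU.1-like genes), 13 of 27 were tested in Hip, with 4 higher and 0 lower, where 25.1% of all genes were called. Cebpb, a C/EBP factor of activated macrophages, went from 35.7 CPM in SPF to 91.8 CPM in GF (1.40 ± 0.27, edgeR adjusted p = 0.000376). Irf3 (1.24 ± 0.37) and Cebpd (1.10 ± 0.34) were also higher. In the PFC, where 37.5% of all genes were called, 10 were tested, with 2 higher, Cebpb (1.31 ± 0.46, edgeR adjusted p = 0.0224) and Cebpg (1.25 ± 0.33), and 1 lower, Mafg (-0.84 ± 0.25). The list medians were 0.25 in Hip and 0.18 in the PFC, beside -0.01 and 0.01 over all tested genes.

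Among other transcription factors of macrophages, 5 of 37 tested were higher and 3 lower in Hip, and 8 of 27 were higher and 2 lower in the PFC, shares near those over all genes (25.1% and 37.5%). The AP-1 gene Junb (1.72 ± 0.24 in Hip and 1.48 ± 0.40 in PFC) and the early response gene Egr1 (1.09 ± 0.26 and 1.52 ± 0.33) were higher in GF in both regions. Fos (1.82 ± 0.44) and Jund (1.18 ± 0.26), which encode further AP-1 subunits, were higher in Hip GF microglia. Ets1, an ETS relative of PU.1, was lower in PFC GF microglia (-1.51 ± 0.32), as was the bHLH gene Lyl1 (-2.90 ± 0.27, edgeR adjusted p = 3.54e-10). The list median was -0.06 in Hip and 0.39 in the PFC.

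TGF-beta is the signal known to maintain Sall1 in microglia. Of 11 genes of its pathway tested in Hip, Nrros, which holds latent TGF-beta at the microglial surface, was higher in GF than in SPF (1.45 ± 0.25), at 254 CPM in GF, 95.4 CPM in SPF and 221 CPM in CGF, and Tgfb2 (-1.05 ± 0.37) and the repressor Ski (-0.47 ± 0.15) were lower. Of 10 tested in the PFC only Ski was called, and it was lower (-0.96 ± 0.19). Over all genes 25.1% were called in Hip and 37.5% in the PFC. The list medians were 0.18 and 0.14, beside -0.01 and 0.01 over all tested genes.

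Myeloid genes known as targets of PU.1, IRF8 or C/EBP factors were higher in Hip GF microglia in 7 of 11 tested and lower in 0, with a median of 0.86, where 25.1% of all genes were called. Aif1, which encodes IBA1, went from 7.73 to 33.5 CPM (2.09 ± 0.42) and Cd68, a lysosomal protein, from 15.9 to 43.2 CPM (1.48 ± 0.38). The share of free RNA and the astrocyte and microglial markers also moved between Hip GF and Hip SPF, as given above. Their part in the values of this and the other lists was not tested. In the PFC 2 of 8 tested were higher and 2 lower, with a median of -0.38, where 37.5% of all genes were called. There Aif1 (-2.05 ± 0.33) and Cd68 (-1.27 ± 0.42) were lower in GF. Aif1 was at 36.4 CPM in PFC GF and 144 CPM in PFC SPF, and Cd68 at 30.9 and 79.4 CPM. The PFC SPF libraries were shallow, so group and depth cannot be told apart in these values. Tlr4 (1.15 ± 0.41 in PFC, 1.35 ± 0.23 in Hip) and the oxidase subunit Ncf1 (0.92 ± 0.24 and 0.99 ± 0.17) were higher in GF in both regions. Of 15 response genes of activated macrophages in the files only 1 could be tested in Hip and 0 in the PFC, and it was not called. Between CGF and SPF, 1 gene of the TGF-beta list in Hip was called, again Nrros (1.23 ± 0.25, edgeR adjusted p = 0.0433), and 0 genes of the other lists in either region, where 0.137% of all genes were called in Hip and 0.0198% in the PFC.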

How the data were processed

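Raw UMI counts of 18 droplet libraries were used as deposited by the authors, per the labels and methods from 10x 3' V3.1 kits, with fastp trimming and alignment to mm10 by Cell Ranger 3.1.0, the version the matrices carry, with Ensembl gene models. Whether reads were counted by strand or in introns is not given in the sources used here. The 8 members, the lists and the tests were chosen with earlier results of these data known. Nuclei with at least 200 genes and at most 10% mitochondrial UMIs were kept (138000 of 139924), with no doublet caller. A nucleus entered a type when its marker UMIs (at least 3) exceeded a level set per list, 25 per 10000 UMIs for microglia and 15 for border macrophages. It was set aside as mixed (5042 nuclei) when a second list reached 2/3 of the first, and 13479 nuclei passed no list. UMIs were summed per library and type, and tested with edgeR 4.0.16 (R 4.3.3; low-count filter, TMM, quasi-likelihood test, Benjamini-Hochberg adjustment over all genes), a design with all 3 groups of a region or, between regions, all 18 sums. DESeq2 1.42.0 was an alternative. Types were compared by exact paired permutation (numpy 2.4.6), and Poisson intervals came from scipy 1.17.1. Clusters were made per region by the Leiden method (leidenalg and igraph) on a neighbour graph from scikit-learn. Beside the members, up to 4 genes of each list with the largest change among those called were named, except 1 gene that is not reported here. Mouse numbers in the labels pair the regions because both came from the same animal, and deviations of paired libraries correlated at 0.0138 to 0.113 over 9169 genes. On simulated data, edgeR recovered 64.3% of log2 changes of 1 and 95.7% of 2 for GF against SPF in Hip (7954 genes), and 60% and 96.6% in PFC (4829 genes). Gene positions are from GENCODE (GRCm38, 30766 of 30905 genes matched) and upstream windows from RefSeq. The depth per library given above is summed over all barcodes before the filter, and intervals cover counting error only.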

Additional observations from a re-analysis of the deposited data

Results flagged for a closer look

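In 13 of 58 tests of a member in a nuclear type, the difference between groups itself differed between Hip and PFC (edgeR adjusted p under 0.05), and Mef2a accounted for 8 of them. The share of all genes that passed the same test ran from 8.98% in microglia to 52.4% in excitatory neurons. The count of 13 is therefore not read as an excess of members. All values below are Hip minus PFC on the log2 scale. The PFC libraries of SPF and CGF mice were the shallow ones, so region and depth cannot be told apart in these tests.

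Mef2a was shifted downward in GF in Hip relative to the PFC. For GF against CGF the value was -1.04 in excitatory neurons (52.4% of genes called), -0.87 in OPC (16.3%), -0.84 in astrocytes (27.6%), -0.77 in interneurons (42.8%) and -0.70 in microglia (9.82%). For GF against SPF it was -0.86 in excitatory neurons (52.2%), -0.67 in interneurons (40.9%) and -0.64 in oligodendrocytes (16.9%). The Mef2a value was negative in 6 of 6 types for both pairs of groups, which share the GF libraries. The 6 types come from the same libraries, so they are not independent results. Excitatory neurons gave 64.7% of the Mef2a UMIs. The part of their free RNA in the values of astrocytes, oligodendrocytes, OPC and interneurons was not tested. In excitatory neurons Mef2a was at 155 ± 2.45 CPM in Hip GF and 164 ± 10.1 CPM in Hip CGF, and at 160.4 ± 5.92 CPM in PFC GF and 109 ± 6.73 CPM in PFC CGF (SD, n = 3).

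Maf in interneurons gave -0.79 (GF against SPF, 40.9% of genes called) and -0.78 (the same with CGF, 42.8%). Its level there was 228 ± 14.2 CPM in Hip GF, 328 ± 28.6 CPM in Hip SPF, 237 ± 22.2 CPM in PFC GF and 226 ± 13.3 CPM in PFC SPF. Mef2c in OPC gave -0.81 for GF against CGF (16.3% of genes called). Cebpa in excitatory neurons went the other way, with 1.85 (against SPF, 52.2% of genes called) and 1.77 (against CGF, 52.4%). Its levels there were 0.733 to 2.08 CPM over the 6 sets of libraries.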

How the results depend on the processing

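Of 249 alternative counts of members called, 219 stayed within 1.5 times and 30 moved, and of 1255 alternative values of members, 24 lost a call, 39 gained one and 0 reversed (61 values that were not called changed sign). Only a value called in the main fits can lose a call, and most of the 1255 were not called there. The 24 are therefore not to be read as a share of 1255. Counts of 0 in both fits, and a move from 3 to 2, are among those that stayed within 1.5 times. For GF against CGF in Hip microglia (2 members called), DESeq2 and cluster-defined microglia gave 1 and subtraction of free RNA 4, and leaving out 1 mouse gave 0 to 2, with 0 without GF5 and 1 without GF6. For GF against SPF in PFC (3 called), 5 were called without TMM and 5 without the low-count filter, and 2 to 4 without 1 mouse. For GF against CGF in PFC (1 called), 2 were called without TMM, without the filter, with clusters, with thinned sums and without the 10% of nuclei richest in UMIs, 0 with free RNA subtracted, and 1 to 2 without 1 mouse. Between regions, cluster-defined microglia gave 1 in GF (0 in the gated nuclei), 1 in SPF (2) and 1 in CGF (2), and leaving out 1 mouse gave 0 to 2 in SPF and 0 to 3 in CGF. For the difference of GF against SPF between regions (0 called), 2 were called without TMM, 1 without the filter, 1 with clusters and 2 with free RNA subtracted, and 0 to 1 without 1 mouse (1 without SPF32). In the other types leaving out 1 mouse gave 4 to 8 pairs in Hip and 5 to 7 in PFC, and for microglia against every type 5 to 7 members in Hip and 6 in PFC. A replicate block for the mouse left the counts between regions at 0, 2 and 2 and that of the difference at 0. Added after seeing the data, the same block took the difference of GF against CGF in microglia from 1 member to 2, and in the other types the pairs called from 5 to 7 for GF against SPF and from 7 to 9 for GF against CGF, with no call lost. The pairing changed no other call of a member. Clusters hold 2512 nuclei in Hip and 2199 in PFC, and the cause of the moves was not tested.

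Counts over all genes moved too. In Hip GF against SPF, 2013 genes were called by edgeR, 1287 by DESeq2 and 636 with free RNA subtracted, and for GF against CGF 2152, 1412 and 807. In the PFC the counts were 1891 and, with free RNA subtracted, 979 for GF against SPF, and 1736 and 896 for GF against CGF. The subtraction left fewer genes to test, 6370 against 8012 in Hip and 3331 against 5048 in the PFC. Between regions in GF mice 135 genes were called, 1277 with clusters, 228 with the mouse as a block, 208 without the filter and 12 after subtraction. In the shallow PFC libraries Cebpa and Spi1 rest on few UMIs.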
